A study of Mus musculus with 24 samples.

Results

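Mouse embryonic stem cells in which both MLL3 and MLL4 are catalytic-dead (MLL3CD_MLL4CD) were compared between the formative and the naive state. Every gene of the expression table entered as formative minus naive, which gave 16617 genes from 6 of the 24 samples of the series, 3 formative and 3 naive. The formative cells had been collected 63 h after LIF and the 2 inhibitors of naive culture were withdrawn, and the naive cells had been kept in them. Per the labels these cells derive from the R1 line, as do the wild-type cells, in the formative and the naive state, with which the transition was compared. A second comparison used formative and naive MLL3KO_MLL4KO cells, for which the labels name no parental line. Naive and formative MLL3KO_MLL4fl cells, called floxed here, were not compared. They entered the joint fit with its common estimate of spread, the scaling by size factors and the correlation between libraries. The labels give 3 samples per group and the series' design text says that they were cultured independently. The sources used here do not say whether a genotype stands for 1 clone or several, and genotype and clone cannot be told apart.

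MLL3 and MLL4 are large histone methyltransferases that place 1 methyl group on lysine 4 of histone H3 at enhancers. Naive embryonic stem cells resemble the epiblast before implantation and are held there by LIF, which acts through STAT3, and by inhibitors of MEK and of GSK3. When these are withdrawn, FGF and ERK signalling is released, the naive transcription factors are shut off, and a formative state resembling the epiblast soon after implantation is reached. Formative cells are known for high Fgf5, Pou3f1 and Dnmt3b and for competence to form the germ layers.

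The values were log2 of read counts scaled to the library total (CPM), which the authors had averaged within each group. Since each mean fixes the whole counts that can have produced it, the libraries behind the means were recovered where counts were low enough. The 3 formative catalytic-dead libraries, named a to c from the deepest down, held 13973647, 10571912 and 6919314 counts. The naive ones held 8945300, 6572227 and 6095600 counts. Library c of the formative group, with 6919314 counts, also entered the formative knockout column. Of 412 genes at least 4-fold apart between formative catalytic-dead and knockout cells, 94.66% lay nearer to the other catalytic-dead libraries in it, so it was kept as catalytic-dead and removed from the knockout mean. The corresponding shares were 95.86% for library a and 90.26% for library b. The naive wild-type column averaged 2 libraries in place of 3. For each of the 23 libraries the closest other library, by correlation over genes, came from the same group.

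A gene was tested where its counts were recovered in every library of the groups compared. This held for 11996 genes in the catalytic-dead transition, and the other 4621, mostly abundant, have 1 mean per state and no test. The median level in formative cells was 4.19 CPM for tested and 86.5 CPM for untested genes. Rose and fell are used only for tested genes with a Benjamini-Hochberg adjusted p under 0.05 in limma. Values per library are plain CPM. Fitted differences and means are on the log2 scale with a prior count of 2, which understates the change of genes near 0.

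In the transition 2233 genes rose, 18.6% of those tested, and 1369 fell, 11.4%. The rises were also larger. Of the genes that passed, 798 exceeded their naive level 4-fold or more, while 232 dropped 4-fold or more, and for 16-fold the numbers were 61 and 8. The median difference was 1.68 log2 among the genes that rose and -1.21 among those that fell. Over all 16617 genes the median was 0.06. The formative libraries were on the whole deeper than the naive ones, and the part of depth in the unequal counts was not tested. Among the untested genes the directions were more even, with 287 of 4621 higher by 2-fold or more (6.21%) and 269 lower by as much (5.82%). Without any 1 of the 6 libraries, the count of genes that rose lay between 1774 and 2065 and the count that fell between 974 and 1220. Without formative library c, which is in both columns, 1999 genes rose and 1097 fell.

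**Figure D1:**
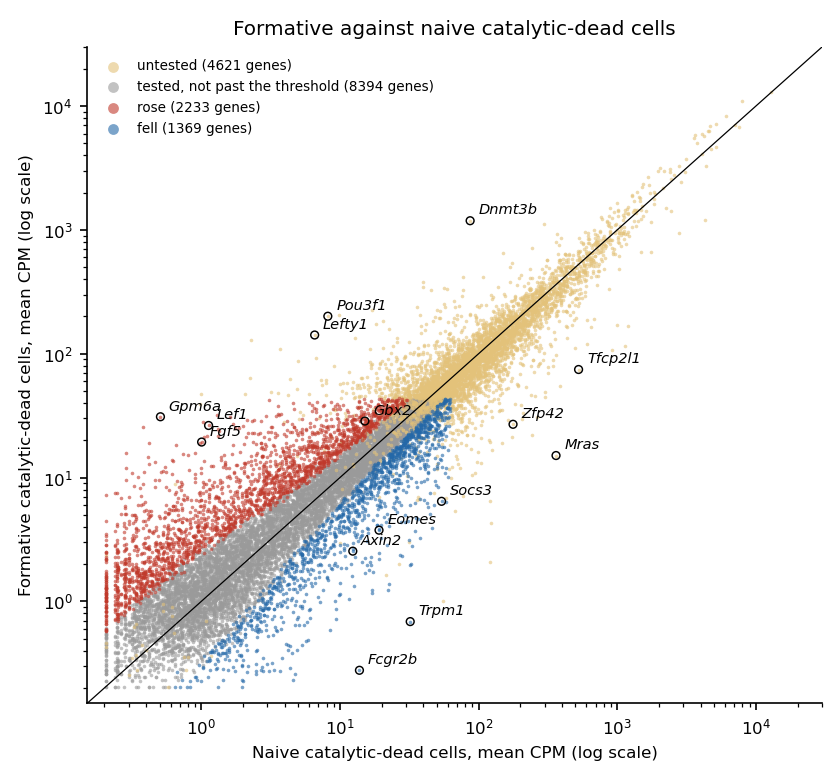
Mean CPM of 16617 genes in formative (vertical, log scale) against naive (horizontal, log scale) catalytic-dead cells, with points coloured by the test and a line at equality. The 2233 genes that rose lie above the line and the 1369 that fell below it, while the untested genes fill the abundant end, where Dnmt3b stands at 1186 CPM in formative and 86.9 CPM in naive cells.

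The largest rises were of genes close to silent in naive cells. Gpm6a, a membrane glycoprotein of neurons on chromosome 8 (54954843 to 55060871 of GRCm38), had 31.8, 28.2 and 32.5 CPM in formative libraries, against 0.112, 0.913 and 0.164 CPM in naive libraries. It rose by 5.93 log2 (SE 0.48, adjusted p = 1.14e-10). Mir670hg, the host transcript of a microRNA on chromosome 2 (94160636 to 94264918), had 27.3, 21.3 and 28.6 CPM in formative libraries, against 0.112, 0 and 0.656 CPM in naive libraries. Its rise was 6.07 log2 (SE 0.47, adjusted p = 7.62e-11). In both genes the lowest formative library stood more than 20 CPM above the highest naive one.

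Pde4b, a phosphodiesterase that breaks down cyclic AMP, had 14.2, 13.6 and 15.3 CPM in formative libraries, against 0.335, 0.152 and 0.164 CPM in naive libraries, and rose by 5.14 log2 (SE 0.44, adjusted p = 2.17e-10). Wt1, a zinc-finger factor of kidney and gonad development, had 12.8, 16.2 and 10.7 CPM in formative libraries, against 0.559, 0.152 and 0.164 CPM in naive libraries. Its rise was 4.83 log2 (SE 0.44, adjusted p = 6.05e-10). For both, the formative and naive libraries were separated by more than 10 CPM. Il10, the gene of an anti-inflammatory cytokine, had 12.2, 13.6 and 12.4 CPM in formative libraries, against 0.335, 0.457 and 0 CPM in naive libraries, and rose by 4.95 log2 (SE 0.44, adjusted p = 5.48e-10). Its 3 formative libraries were alike and no naive library reached 1 CPM.

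Others among the 12 largest rises rest on very few naive counts. Cysltr1, a receptor for cysteinyl leukotrienes, had 367 counts in the formative libraries together and 2 in the naive ones, a ratio of 126 after scaling to depth with a 95% counting interval of 34.6 to 1045. The uncharacterised gene 2610528J11Rik had 482 counts in formative and 2 in naive libraries (ratio 165.5, interval 45.6 to 1371), and Crct1 had 346 in formative and 3 in naive libraries (ratio 79.2, interval 26.9 to 386). Fndc3c1, Jakmip2, Tmem54 and Zfp608 completed the group, with rises of 5.50, 4.86, 4.86 and 4.79 log2. The 12 were chosen among genes whose formative and naive libraries do not overlap, which holds for 42.9% of all tested genes, so the lack of overlap is no finding for them or for the largest falls. Wherever libraries are said not to overlap or to be separated in this report, that describes the values and adds no evidence to the test.

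The largest falls were led by Fcgr2b and Trpm1. Trpm1, a cation channel known from retinal bipolar cells and melanocytes, lies on chromosome 7 (64153835 to 64269775). It had 0.644, 0.568 and 0.289 CPM in formative libraries, against 36.7, 28 and 31.7 CPM in naive libraries, and fell by 5.55 log2 (SE 0.43, adjusted p = 7.62e-11). Fcgr2b, an inhibitory Fc receptor for IgG on chromosome 1 (170958617 to 170976547), was down to 2 counts in the formative libraries together, against 303 counts in the naive ones. The ratio of naive to formative was 221 after scaling to depth (interval 60.5 to 1829). The naive libraries of Fcgr2b held 16.2, 11.7 and 13.3 CPM, and no formative library reached 0.2 CPM.

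Smyd1, a lysine methyltransferase of heart and skeletal muscle, had 2.36, 1.61 and 1.45 CPM in formative libraries, against 28.2, 37.0 and 31.0 CPM in naive libraries (a difference of -4.02 log2, SE 0.36, adjusted p = 5.45e-10). The homeobox genes Vax2, Tlx2 and Cdx1 fell by 4.03, 3.56 and 3.54 log2. Cdx1, a caudal-type factor of posterior patterning, had 2.43, 3.03 and 3.76 CPM in formative libraries, against 33.1, 37.6 and 42.3 CPM in naive libraries. Tgm1, a transglutaminase of the cornified skin layer, fell by 4.18 log2, with 0.716, 1.99 and 0.723 CPM in formative libraries and 23.7, 18.6 and 24.6 CPM in naive libraries. Dclk3 and Ppp1r14d fell by 3.87 and 3.61 log2, and the lincRNAs Gm10522, Gm46332 and 4930444M15Rik by 4.01, 3.78 and 3.56 log2. All 24 of the largest rises and falls kept their call in every alternative run.

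**Figure D2:**
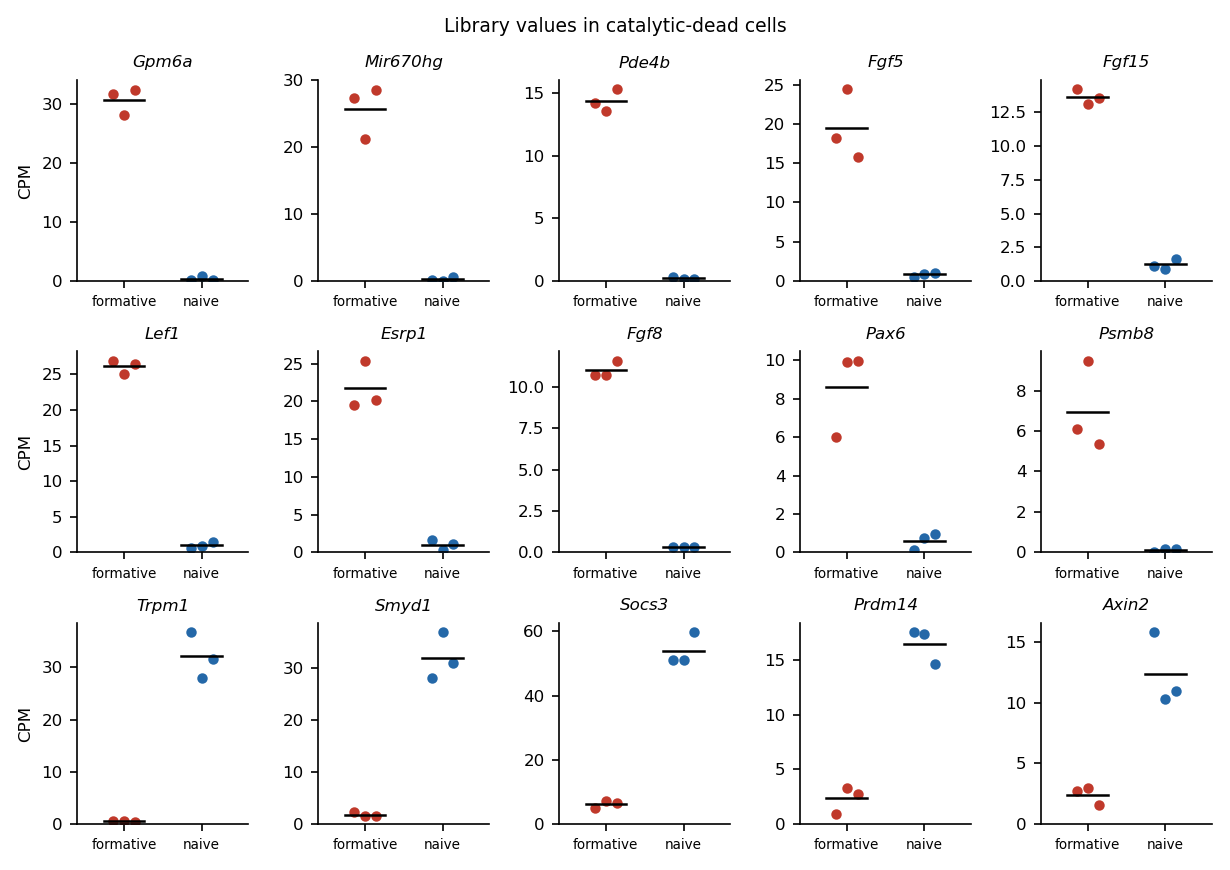
CPM per library (points) and their mean (bars) for 15 genes in formative (left) and naive (right) catalytic-dead cells, 3 libraries each, on linear axes from 0. The 10 genes that rose sit near 0 in naive cells, as Fgf8 with at most 0.335 CPM there, and the 5 that fell, such as Socs3, have no formative library as high as any naive one.

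Among the untested genes with the largest differences, Pou3f1, a POU factor of the epiblast after implantation and marker of the formative state, averaged 201 CPM in formative and 8.18 CPM in naive cells, a difference of 4.62 log2. Lefty1, a secreted inhibitor of Nodal, averaged 142 CPM in formative and 6.57 CPM in naive cells (4.43 log2). Car4, a carbonic anhydrase, had the largest untested difference, 5.81 log2, with 128 CPM in formative and 2.29 CPM in naive cells. It was followed by Bcl11a, a zinc-finger repressor, at 5.57 log2. Gm16233, Tmem98 and Vrtn were higher by 5.33, 4.83 and 4.52 log2. In the other direction Mras, a Ras-family GTPase, averaged 15.1 CPM in formative and 362 CPM in naive cells (-4.59 log2). Gm13889 and Dcstamp, a membrane protein of cell fusion, were the lowest at -5.87 and -5.78 log2. Accsl, 2410137M14Rik, Slc7a8 (an amino acid transporter), E130202H07Rik and St8sia1 (a sialyltransferase of ganglioside synthesis) lay between -4.83 and -3.67 log2. These are differences of means with no test.

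The summed levels of state markers went with the labels. Summed over 6 naive markers (Klf4, Esrrb, Tfcp2l1, Zfp42, Nr0b1, Tbx3), the mean level was 248 CPM in formative and 1416 CPM in naive catalytic-dead cells. Over 4 formative markers (Fgf5, Pou3f1, Otx2, Dnmt3b) it was 1601 CPM in formative and 162 CPM in naive cells. Dnmt3b made up most of the sum in formative cells. Of the 6 naive markers 1 fell, and of the 4 formative markers 1 rose, while the sums are of means and carry no test. Wild-type cells gave sums of 288 CPM in formative and 1711 CPM in naive cells for the naive markers, and 2277 CPM in formative and 152 CPM in naive cells for the formative markers. Kmt2c, which encodes MLL3, averaged 35.4 CPM in formative and 67.4 CPM in naive cells and was untested. Kmt2d, which encodes MLL4, had 22.3, 19.5 and 18.8 CPM in formative libraries, against 28.6, 27.5 and 26.1 CPM in naive libraries. Its formative libraries were all lower, but the difference of -0.44 log2 did not pass (SE 0.19, adjusted p = 0.071). The level of a transcript does not show whether its enzyme is active, so neither gene checks the label.

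Of 20 genes of naive pluripotency, 15 were untested and 13 of those were at least 2-fold lower in formative cells, among them Tfcp2l1 (74.6 CPM in formative and 526 CPM in naive cells), Tbx3 (30.6 and 262), Klf2 (44.9 and 299) and Nanog (188 and 604). The median over the list was -2.32 log2, against 0.06 over all genes. Of the 5 tested members, 3 fell and 1 rose, beside 11.4% and 18.6% of all tested genes. Among all untested genes 5.82% were at least 2-fold lower. Prdm14, a repressor of FGF signalling in naive cells, had 0.930, 3.31 and 2.75 CPM in formative libraries, against 17.6, 17.4 and 14.6 CPM in naive libraries. It fell by 2.87 log2 (SE 0.35, adjusted p = 1.1e-07), with every formative library below every naive one. Nr0b1 (Dax1), an orphan nuclear receptor, fell by 2.05 log2 and Tcl1, an activator of AKT, by 1.74 log2.

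Gbx2, a homeobox gene that can sustain the naive state, was the member that rose. It had 27.1, 31.5 and 26.7 CPM in formative libraries, against 19.3, 12.5 and 13.8 CPM in naive libraries, a rise of 0.92 log2 (SE 0.20, adjusted p = 0.000727). The lowest formative library was above the highest naive one. Fgf4 and Dppa5a, both untested, were lower in formative cells by 0.80 and 0.95 log2.

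Of 22 formative and primed genes, 10 were tested, of which 6 rose and 2 fell, beside 18.6% and 11.4% of all tested genes. Of the 12 untested ones 9 were at least 2-fold higher, beside 6.21% of all untested genes. The list median was 1.91 log2. Fgf5, the classical ligand marking the epiblast after implantation, had 18.3, 24.4 and 15.8 CPM in formative libraries, against 0.559, 0.913 and 0.984 CPM in naive libraries, and rose by 4.27 log2 (SE 0.45, adjusted p = 1.47e-08). Lef1, a DNA-binding partner of beta-catenin, had 26.9, 25.1 and 26.5 CPM in formative libraries, against 0.559, 0.913 and 1.48 CPM in naive libraries, and rose by 4.55 log2 (SE 0.47, adjusted p = 7.18e-09). Neither gene had overlapping libraries. Fgf15 and Grhl2, a grainyhead factor that primes epithelial enhancers, rose by 3.31 and 2.71 log2, and Zic2 by 1.89 log2.

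The 2 members that fell were Nkx1-2 and Etv4. Nkx1-2, a homeobox gene of the caudal epiblast, had 2.08, 1.32 and 1.30 CPM in formative libraries, against 15.1, 20.1 and 16.9 CPM in naive libraries (-3.33 log2, SE 0.38, adjusted p = 3.36e-08). Etv4, an ETS factor downstream of FGF signalling, fell by a smaller 0.54 log2 (SE 0.17, adjusted p = 0.0142). The de novo DNA methyltransferases Dnmt3a (349 CPM in formative and 39.7 CPM in naive cells) and Dnmt3b were higher by 3.13 and 3.77 log2, and Otx2 by 1.56 log2 (195 CPM in formative and 65.9 CPM in naive cells), all untested. Tet2, which starts the removal of DNA methylation, was lower by 2.79 log2 (29.5 CPM in formative and 204 CPM in naive cells).

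Of 21 genes of the FGF and ERK response, 15 were tested, of which 8 rose, 0 fell and 7 did not pass, beside 18.6% and 11.4% of all tested genes that rose and fell. Etv4, given above with the formative list, is also known as a target of this pathway and fell. The list median was 0.98 log2. Among ligands, Fgf8 had 10.7, 10.7 and 11.6 CPM in formative libraries, against 0.335, 0.304 and 0.328 CPM in naive libraries, and rose by 4.41 log2 (SE 0.47, adjusted p = 8.24e-09). Among receptors, Fgfr2 rose by 0.91 log2, with 9.59, 9.74 and 9.39 CPM in formative libraries and 5.03, 5.17 and 4.76 CPM in naive libraries. Both showed little spread within a state and no overlap between states.

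Feedback inhibitors of the pathway made up most of the remainder. The ERK phosphatases Dusp4 and Dusp5 rose by 2.87 and 1.59 log2, and Dusp6, untested, averaged 204 CPM in formative and 38.0 CPM in naive cells. The Sprouty genes Spry1 and Spry4 rose by 1.88 and 1.89 log2. The immediate-early genes Egr1 and Myc rose by 2.19 and 1.99 log2. Egr1 had 5.01, 4.16 and 4.48 CPM in formative libraries, against 1.45, 0.457 and 0.820 CPM in naive libraries. The 3 formative libraries of Egr1 were all above the naive ones.

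Of the LIF and STAT3 list, 14 of 15 members were measured. Of 6 tested 3 fell and 0 rose, beside 11.4% and 18.6% of all tested genes. The list median was -0.85 log2. Socs3, the feedback inhibitor of LIF signalling, had 5.08, 7.28 and 6.504 CPM in formative libraries, against 51.0, 51.1 and 59.9 CPM in naive libraries, and fell by 3.07 log2 (SE 0.24, adjusted p = 2.03e-10). Junb, an AP-1 factor, fell by 1.96 log2 and Sbno2 by 1.38 log2. Stat3 itself averaged 43.0 CPM in formative and 137 CPM in naive cells, and Bcl3 11.8 and 61.1 CPM in the same order, both untested. Pim1, a kinase, was the exception among untested members, higher by 1.12 log2.

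Members of the Wnt list went both ways. Of 41 genes on the list 38 were measured and 30 tested, and 5 rose, 9 fell and 16 did not pass. Over all tested genes 18.6% rose and 11.4% fell, so the share of the list that rose is near that of the whole table. The list median was -0.14 log2. Genes known as beta-catenin targets were called in both directions. Axin2, Sp5 and Cdx1 fell, while Lef1 rose by 4.55, Lgr5 by 1.87 and Nkd1 by 1.73 log2. The call of Lgr5 was lost without formative library a (1.77 log2, adjusted p = 0.0520) or c (1.40, 0.106), and that of Nkd1, near the threshold (adjusted p = 0.0482), in 6 alternatives (0.88 to 2.40 log2, adjusted p between 0.0815 and 0.387). Rnf43, a further member that fell, lost its call without naive library a or c or any formative library (-1.37 to -1.73 log2, adjusted p between 0.0705 and 0.169). It also lost it without weights (0.0563) and with a prior count of 0.5 (0.0593). Axin2, a negative-feedback target, had 2.72, 2.93 and 1.59 CPM in formative libraries, against 15.9, 10.4 and 11.0 CPM in naive libraries (-2.28 log2, SE 0.39, adjusted p = 2.24e-05). Sp5, a zinc-finger target, had 1.57, 1.80 and 1.59 CPM in formative libraries, against 8.05, 9.28 and 8.04 CPM in naive libraries (-2.22 log2, SE 0.33, adjusted p = 3.53e-06). The states did not overlap for either gene.

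The promoters of Sp5, Wnt5b and Axin2, all of genes that fell, are shown because the TCF and LEF motif could be looked for in them. They are the 250 bases before a start site, 5′ to 3′ on the gene's strand, from RefSeq on GRCm38.p6, with capitals marking the motif CTTTGAT or its reverse complement ATCAAAG. Sp5 is on the plus strand (chr2:70474673-70474922), Wnt5b on the minus strand (the last of its 3 annotated start sites, chr6:119449387-119449636) and Axin2 on the plus strand (chr11:108920099-108920348).
Sp5: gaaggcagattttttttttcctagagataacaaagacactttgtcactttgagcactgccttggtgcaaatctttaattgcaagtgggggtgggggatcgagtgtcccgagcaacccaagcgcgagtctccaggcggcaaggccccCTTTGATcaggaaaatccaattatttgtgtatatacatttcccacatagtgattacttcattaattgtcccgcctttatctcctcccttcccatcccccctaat
Wnt5b: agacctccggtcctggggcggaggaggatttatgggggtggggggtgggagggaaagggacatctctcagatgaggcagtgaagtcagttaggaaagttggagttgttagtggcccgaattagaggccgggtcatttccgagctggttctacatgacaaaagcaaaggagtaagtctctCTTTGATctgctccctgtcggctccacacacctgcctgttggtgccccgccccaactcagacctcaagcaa
Axin2: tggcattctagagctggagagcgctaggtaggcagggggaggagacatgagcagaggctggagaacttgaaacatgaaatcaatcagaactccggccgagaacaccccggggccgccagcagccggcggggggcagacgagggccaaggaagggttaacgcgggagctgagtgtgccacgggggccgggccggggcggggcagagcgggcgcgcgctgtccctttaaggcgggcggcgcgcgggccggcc
The motif was present once in the Sp5 and once in the Wnt5b window shown and not in these letters of the Axin2 window. The windows of the other 2 Wnt5b start sites do not hold it, and a gene was counted where any of its windows did. Of the genes of this list that fell, 8 had a promoter entry and 3 of these (37.5%) held the motif on either strand, namely Sp5, Wnt5b and Wnt11. Of those that rose, 4 had an entry and 0 held it, and over all measured genes of the list these 3 were among 24 with an entry (12.5%). Over the genes of the expression table with an entry, 306 of 11285 held it (2.71%). A match describes letters and not a bound site, and the list was chosen with results known.

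Secreted Wnt regulators that fell were Dkk1 (-1.61 log2), which blocks the LRP co-receptors, and Sfrp5 (-1.88 log2), which binds Wnts. Among ligands, Wnt11 was at 0, 0.284 and 0 CPM in formative libraries, against 1.23, 1.52 and 1.97 CPM in naive libraries (-2.68 log2, SE 0.58, adjusted p = 0.000513). Wnt5b fell by 1.51 log2, a call lost without naive library a (-1.34 log2, adjusted p = 0.0779) or formative library c (-1.13, 0.0863). Wnt3 had 6.73, 4.73 and 7.52 CPM in formative libraries, against 2.01, 2.89 and 1.97 CPM in naive libraries, and rose by 1.38 log2, a call lost without naive library a (1.31 log2, adjusted p = 0.0645). Among receptors, Fzd10 fell by 1.71 log2, with 14.3, 11.2 and 12.6 CPM in formative libraries and 41.6, 45.2 and 38.6 CPM in naive libraries. Nkd2, a Dishevelled inhibitor, rose by 3.59 log2 (SE 0.57, adjusted p = 7.69e-06).

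In the Nodal and activin pathway 7 of 19 measured genes were tested, of which Smad3, the signal transducer, rose by 1.03 log2 and Pcsk6, a convertase that cleaves Nodal, fell by 1.42 log2. Pcsk6 had 17.0, 23.8 and 20.1 CPM in formative libraries, against 68.2, 49.8 and 47.3 CPM in naive libraries. Of the 12 untested members 5 were at least 2-fold higher, including both Lefty genes (Lefty2, 157 CPM in formative and 22.5 CPM in naive cells). The list median was 0.24 log2, and of all tested genes 18.6% rose and 11.4% fell. In the BMP pathway 2 of 12 tested genes rose and 0 fell, and the share that rose is near the 18.6% of all tested genes. Bmp4, a ligand needed for germ cell induction, had 7.23, 7.47 and 8.09 CPM in formative libraries, against 3.47, 2.89 and 1.48 CPM in naive libraries, and rose by 1.54 log2 (SE 0.35, adjusted p = 0.000944). All 3 formative libraries were more than 3 CPM above the naive ones. The BMP target genes Id1 and Id2, both untested, were higher by 1.15 and 1.47 log2.

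Primitive streak and endoderm genes were low in both states, with a median of -0.60 log2. Of 13 tested 2 rose, 2 fell and 9 did not pass, shares near the 18.6% and 11.4% of all tested genes that rose and fell. Eomes, a T-box factor of the streak and of trophoblast on chromosome 9 (118478212 to 118486132), had 5.44, 2.46 and 3.32 CPM in formative libraries, against 13.2, 23.9 and 21.5 CPM in naive libraries. It fell by 2.35 log2 (SE 0.32, adjusted p = 7.71e-07), and no formative library reached the lowest naive one. The other fall was Hhex at -0.75 log2, a call lost without naive library a or c or formative library b or c (-0.66 to -0.80 log2, adjusted p between 0.0533 and 0.107). The rises were Fgf8 and Wnt3, given above.

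Of 16 tested neuroectoderm genes 8 rose, 0 fell and 8 did not pass, beside 18.6% and 11.4% over all tested genes, and the median was 1.11 log2. Pax6, a paired-box factor of eye and forebrain, had 6.01, 9.93 and 9.97 CPM in formative libraries, against 0.112, 0.761 and 0.984 CPM in naive libraries, and rose by 3.60 log2 (SE 0.46, adjusted p = 2.51e-07). Sox1, an early neural SOX factor, had 22.8, 19.2 and 25.2 CPM in formative libraries, against 9.73, 12.02 and 10.01 CPM in naive libraries (1.06 log2, SE 0.20, adjusted p = 0.000115). The libraries of the states did not overlap, as held for 42.9% of all tested genes. Pax3 and Nes, an intermediate filament of neural precursors, rose by 2.92 and 0.81 log2. The calls of Zic1, Six3 and Hes5, which also rose, were less firm. That of Zic1 was lost without naive library a (1.56 log2, adjusted p = 0.0618). That of Six3 was lost without naive library b (1.66, 0.0512) and with a prior count of 0.5 (2.26, 0.0706). Hes5 was at the threshold without naive library a (1.74, 0.05). Sox11, untested, averaged 224 CPM in formative and 17.0 CPM in naive cells.

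**Figure D3:**
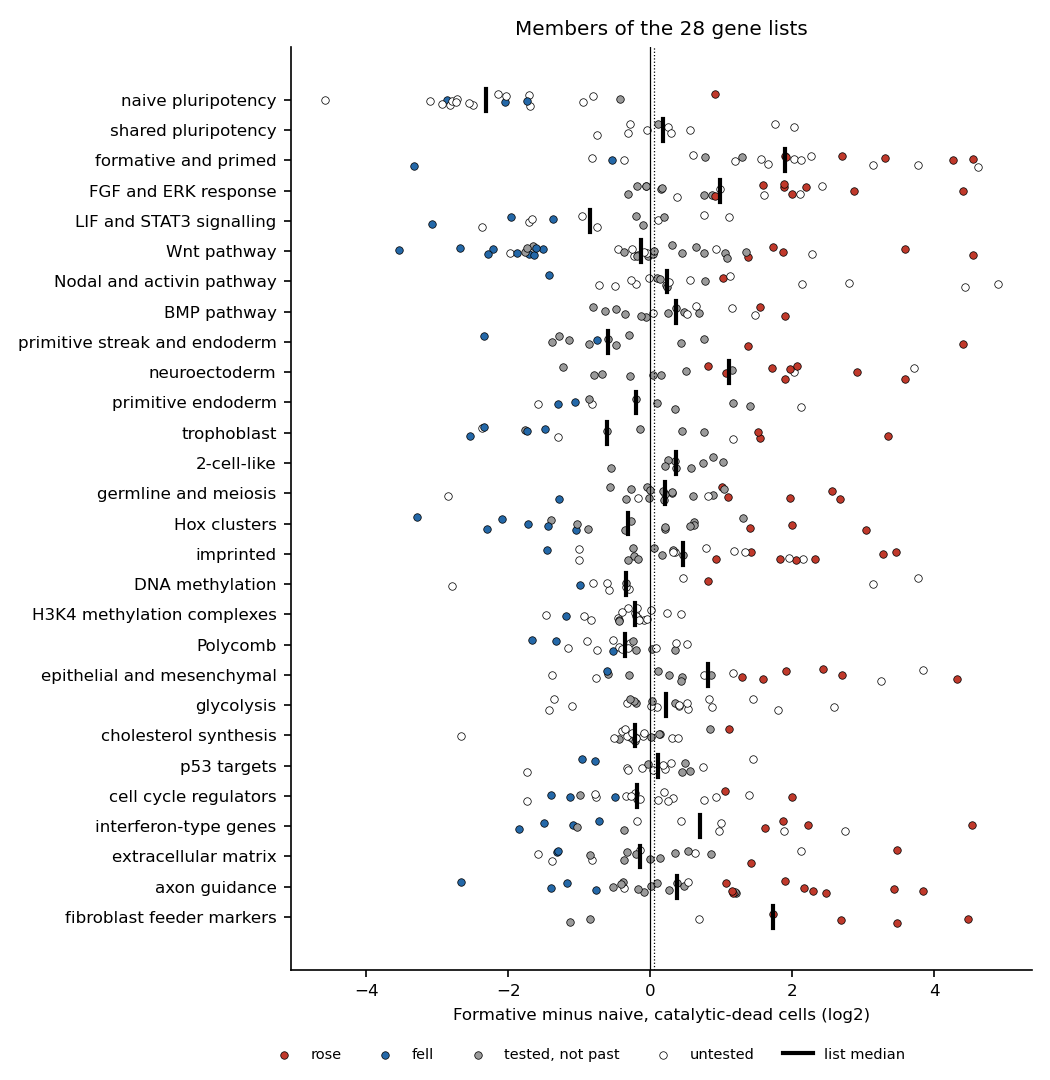
Formative minus naive difference (log2, horizontal) of each measured member of the 28 gene lists (rows) in catalytic-dead cells, coloured by the test, with open points untested, black bars at list medians and a dotted line at the median of all genes, 0.06. Naive pluripotency lies farthest to the left (median -2.32) and the formative and primed list farthest to the right (1.91).

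Genes of other early lineages gave mixed results, to be read beside the 18.6% and 11.4% of all tested genes that rose and fell. Of 8 tested primitive endoderm genes 2 fell and 0 rose. Dab2, an endocytic adaptor of primitive endoderm, had 23.8, 19.7 and 28.04 CPM in formative libraries, against 46.6, 49.2 and 52.7 CPM in naive libraries (-1.06 log2, SE 0.18, adjusted p = 2.78e-05). The 3 measured of 6 primitive endoderm markers summed to 21.6 to 29.6 CPM in formative libraries and 48.6 to 55.1 CPM in naive libraries. Of 12 tested trophoblast genes 4 fell and 3 rose, with Tead4 falling by 2.55 log2 and Cdh3, a cadherin, rising by 3.35 log2. All 9 measured 2-cell-like genes were tested and 0 passed in either direction, and the 3 measured of 5 markers summed to 8.37 to 10.7 CPM in formative and 6.07 to 6.85 CPM in naive libraries.

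Of 20 tested germline and meiosis genes 5 rose and 1 fell, beside 18.6% and 11.4% over all tested genes, so the share that rose is near that of the whole table. Mael, a piRNA pathway factor, had 15.1, 15.5 and 16.6 CPM in formative libraries, against 4.58, 4.26 and 2.95 CPM in naive libraries (1.97 log2, SE 0.31, adjusted p = 6.53e-06). Sycp2, Tdrd1, Tex11 and Slc25a31 rose by 2.68, 2.56, 1.1 and 1.02 log2. Dazl, a germ cell RNA-binding protein, fell by 1.28 log2, with 10.2, 14.1 and 12.1 CPM in formative libraries and 30.9, 25.4 and 33.0 CPM in naive libraries. The states were separated in both Mael and Dazl.

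Hox genes were low throughout, and of 20 tested 3 rose and 6 fell, beside 18.6% and 11.4% over all tested genes. Hoxa5 and Hoxb1 rose by 2.0 and 3.04 log2. Hoxa2 rose by 1.40 log2, a call lost in 6 alternatives. Among these were the runs without naive library a or c or formative library b or c (1.12 to 1.40 log2, adjusted p between 0.0522 and 0.124). The falls were of Hoxc4, Hoxc8, Hoxc9, Hoxc10, Hoxd8 and Hoxd9. The calls of Hoxd8 and Hoxd9 were lost without naive library a (adjusted p = 0.0677 and 0.0998) or formative library a (0.107 and 0.191), that of Hoxd8 also without formative library c (0.0929) and that of Hoxd9 without library b of either state (0.105 naive, 0.0501 formative). Hoxc8 had 0.143, 0.0946 and 0 CPM in formative libraries, against 2.35, 2.89 and 2.30 CPM in naive libraries, and fell by 3.29 log2 (SE 0.50, adjusted p = 4.22e-06). Its naive libraries were close together and its formative ones close to 0.

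Among imprinted genes 7 of 16 tested rose and 1 fell, beside 18.6% and 11.4% over all tested genes, and the median was 0.47 log2. Cdkn1c and Phlda2, growth-restraining genes of 1 imprinted cluster, rose by 3.46 and 2.05 log2. Phlda2 had 17.3, 17.1 and 19.2 CPM in formative libraries, against 4.58, 3.65 and 4.27 CPM in naive libraries. Magel2 and Ndn, neighbours in the Prader-Willi region, rose by 3.28 and 2.33 log2, and Snrpn of the same region, untested, averaged 224 CPM in formative and 50.4 CPM in naive cells. Plagl1, a zinc-finger regulator of other imprinted genes, fell by 1.45 log2. H19, a growth-restraining noncoding RNA, had 40.2, 47.9 and 39.0 CPM in formative libraries, against 23.8, 22.1 and 20.7 CPM in naive libraries (0.92 log2, adjusted p = 0.000521).

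Chromatin regulators were mostly too abundant to test. Of 19 measured members of the H3K4 methylation complexes 3 were tested, of which Ncoa6, a subunit of the MLL3 and MLL4 complexes, fell by 1.19 log2 (SE 0.18, adjusted p = 1.1e-05). It had 25.7, 19.7 and 25.4 CPM in formative libraries, against 56.3, 53.3 and 51.7 CPM in naive libraries. Rbbp5, a shared core subunit, was untested and lower by 1.47 log2 (52.1 CPM in formative and 144 CPM in naive cells). Of 7 tested Polycomb genes 3 fell and 0 rose, beside 11.4% and 18.6% of all tested genes. The list medians were -0.21 and -0.36 log2. Among the Polycomb falls, the calls of Cbx8 and Bmi1 were lost without naive library a (adjusted p = 0.129 and 0.142). That of Cbx8 was also lost without formative library b (0.104), and that of Bmi1 without formative library a (0.0996) or c (0.0995).

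Several epithelial genes rose, with 6 of 14 tested members of the epithelial and mesenchymal list higher, 1 lower and a median of 0.81 log2. The shares over all tested genes were 18.6% higher and 11.4% lower. Esrp1, a splicing regulator of epithelia, had 19.5, 25.4 and 20.2 CPM in formative libraries, against 1.68, 0.304 and 1.15 CPM in naive libraries, and rose by 4.32 log2 (SE 0.44, adjusted p = 9.42e-09). Cldn7, a tight-junction claudin, rose by 2.43 log2. Epcam, untested, averaged 377 CPM in formative and 39.7 CPM in naive cells. Among members known from mesenchyme were Cdh2, which rose by 1.92 log2, a call lost without naive library a (1.64 log2, adjusted p = 0.0938) or b (1.65, 0.0754), and Twist1, which rose by 1.58 log2. Zeb1, a repressor of epithelial genes, was the member that fell, by 0.61 log2, a call lost without naive library b (-0.52 log2, adjusted p = 0.102) or formative library a (-0.60, 0.0694) or b (-0.57, 0.0636).

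Metabolic and growth lists stayed near the median of all genes, and their counts stand beside 18.6% of all tested genes that rose and 11.4% that fell. Of 5 tested glycolysis genes 0 passed, though among the 15 untested Slc16a3, a lactate exporter, averaged 337 CPM in formative and 56.1 CPM in naive cells, and Hk1 23.4 and 62.7 CPM in the same order. In cholesterol synthesis 1 of 9 tested genes rose, Dhcr7 by 1.12 log2, and Ebp was lower by 2.67 log2, untested. Of 6 tested p53 targets 2 fell, and Cdkn1a, untested, averaged 79.9 CPM in formative and 267 CPM in naive cells. Of 7 tested cell cycle regulators 2 rose and 3 fell, with Ccnd3 at -1.40 and Cdk6 at -1.13 log2. Rbl1 and Trp53 also fell, but less firmly. The call of Rbl1 was lost on leaving out any library of either state (-0.42 to -0.58 log2, adjusted p between 0.0501 and 0.148). That of Trp53 was lost without naive library a or formative library a or c (-0.64 to -0.69 log2, adjusted p between 0.0614 and 0.0753). Pou5f1 and Gapdh were listed at only 9.52 and 3.64 CPM in formative and 8.83 and 4.19 CPM in naive cells. Both have near-identical copies elsewhere in the genome, and their levels are uncertain.

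Interferon-type genes went both ways, with 4 of 10 tested rising and 4 falling, beside 18.6% and 11.4% over all tested genes. Psmb8, an immunoproteasome subunit, had 6.08, 9.46 and 5.35 CPM in formative libraries, against 0, 0.152 and 0.164 CPM in naive libraries, and rose by 4.54 log2 (SE 0.47, adjusted p = 4.73e-09). Tap1, which carries peptides for antigen presentation, rose by 1.61 log2, while the RNA sensor Ddx58 fell by 1.5 log2. In axon guidance 9 of 25 tested genes rose and 4 fell, beside the same shares of all tested genes. Sema3e, a secreted semaphorin, had 28.3, 19.2 and 27.9 CPM in formative libraries, against 1.45, 1.52 and 1.64 CPM in naive libraries (3.84 log2, SE 0.46, adjusted p = 1.68e-07). Ntn1, the guidance ligand netrin, fell by 2.67 log2 and its libraries did not overlap. Other calls were less firm. The falls of Epha2 and Efna3 lost theirs without formative library a (adjusted p = 0.11 and 0.0761) or naive library b (0.0694 and 0.174), and in further runs. The rises of Efna5 and Slit3 lost theirs without naive library a (0.0652 and 0.056), and that of Sema4d without formative library c (0.0653).

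Of 13 tested extracellular matrix genes 2 rose and 2 fell, shares near the 18.6% and 11.4% of all tested genes. Col1a2, a fibrillar collagen, had 10.2, 7.57 and 16.04 CPM in formative libraries, against 0.671, 0.609 and 1.15 CPM in naive libraries, and rose by 3.47 log2 (SE 0.52, adjusted p = 3.13e-06). Nid1, a basement membrane protein, fell by 1.32 log2. Col5a2 rose by 1.41 log2, a call lost without weights (adjusted p = 0.0746). It was also lost without any naive library or formative library a (1.30 to 1.48 log2, adjusted p between 0.0517 and 0.0991). Lama1 fell, a call lost without naive library a or b or any formative library (-1.11 to -1.47 log2, adjusted p between 0.0785 and 0.167). Col1a2 is also a marker of fibroblasts, which are commonly used as feeders, and 4 of the 7 measured of 11 fibroblast markers rose (Col1a2, Dcn, Thy1 and Tagln). The call of Tagln was lost without naive library a or b or formative library a (adjusted p between 0.0691 and 0.125). The mean levels of the 7 markers summed to 102 CPM in formative and 50.5 CPM in naive catalytic-dead cells, against 38.1 and 11.9 CPM in wild-type cells in the same order. Dcn, a proteoglycan, was at 11.9, 13.6 and 10.8 CPM in formative libraries, against 0.112, 0.304 and 0.820 CPM in naive libraries, while Col1a1 was at most 1.503 CPM in formative libraries. The part of such cells in the result for Col1a2 was not tested. In bulk samples, a change in the number of cells of a type and a change per cell cannot be told apart.

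The transition of catalytic-dead cells was set beside that of wild-type cells of the same R1 line, which shares no sample with it, to ask where loss of catalysis went with a different response. Of 11575 genes tested in both, 2135 rose in catalytic-dead and 2317 in wild-type cells, and 1389 rose in both. Over its own set of tested genes, 19.8% rose and 12.7% fell in wild-type cells. The shared rises are 65.06% of the genes that rose in catalytic-dead cells and 59.95% of those that rose in wild-type cells. For falls, 1298 genes in catalytic-dead and 1353 in wild-type cells had 682 in common, 52.54% of the catalytic-dead and 50.41% of the wild-type genes. The difference of the transitions itself passed for 394 genes, 217 with the catalytic-dead difference above the wild-type one (1.87% of those tested) and 177 below (1.53%). With size factors in place of library totals these were 304 and 146, so the balance of the directions depends on the scaling. Without naive wild-type library a the counts were 132 and 65, and without library b 217 and 110.

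A gene going opposite ways in the lines was rare. There were 26 genes that rose in catalytic-dead and fell in wild-type cells and 12 that did the reverse. All 38 passed the test of the difference, but calls in opposite directions make that all but certain, so it adds no evidence. Gbx2 was among the 26. In wild-type cells it had 3.31, 4.22 and 3.59 CPM in formative libraries, against 19.1 and 24.7 CPM in naive libraries, so its transitions differed by 3.41 log2 (SE 0.34, adjusted p = 2.89e-07). The naive levels of the lines were close and the formative levels were not. Rnf165, a ubiquitin ligase, had 33.7, 29.1 and 34.3 CPM in formative and 9.61, 10.7 and 7.71 CPM in naive catalytic-dead libraries, against 5.76, 4.81 and 5.18 CPM in formative and 21.8 and 15.5 CPM in naive wild-type libraries. Its difference of transitions was 3.55 log2 (SE 0.37, adjusted p = 2.89e-07). Bmp4 likewise rose in catalytic-dead cells and fell in wild-type cells, where it had 3.17, 4.42 and 3.19 CPM in formative and 8.15 and 6.34 CPM in naive libraries (difference 2.52 log2, SE 0.47, adjusted p = 0.00118).

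Eomes and Runx3 went the other way. In wild-type cells Eomes had 25.2, 15.2 and 23.9 CPM in formative libraries, against 6.81 and 6.45 CPM in naive libraries, where it rose by 1.63 log2. The transitions of Eomes therefore differed by -3.98 log2 (SE 0.44, adjusted p = 3.93e-07). Runx3, a Runt factor of blood and gut, had 1.86, 2.55 and 2.46 CPM in formative and 19.6, 16.7 and 20.7 CPM in naive catalytic-dead libraries, against 8.21, 9.22 and 6.64 CPM in formative and 3.09 and 2.60 CPM in naive wild-type libraries. Its difference was -4.37 log2 (SE 0.47, adjusted p = 2.89e-07). For both genes naive catalytic-dead cells were above naive wild-type cells, and formative catalytic-dead cells below formative wild-type cells, in every library.

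**Figure D4:**
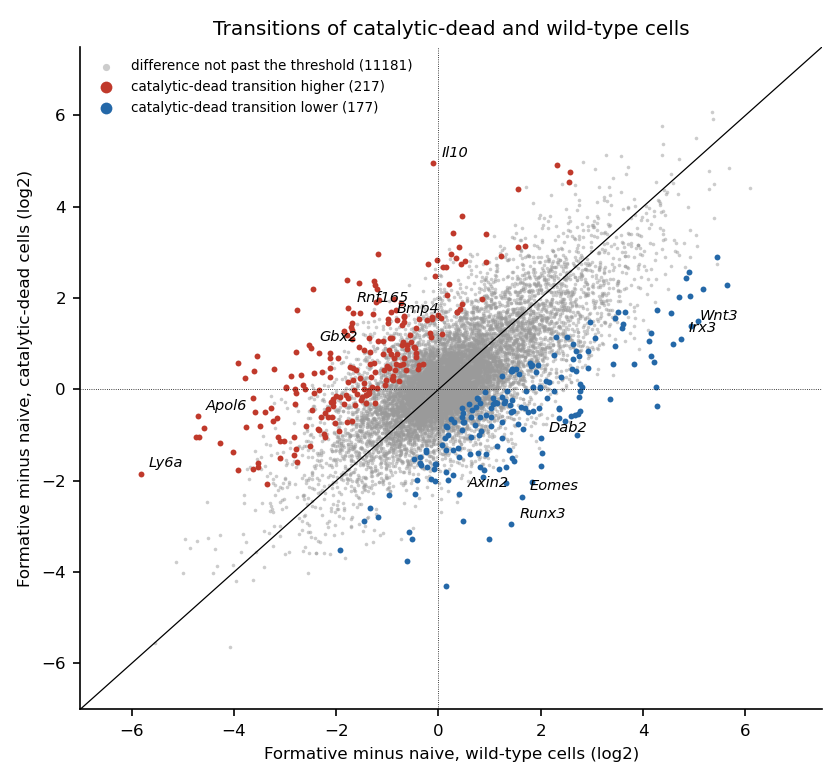
Formative minus naive difference (log2) in catalytic-dead (vertical) against wild-type (horizontal) cells for 11575 genes, with a line at equality and genes past the test of the difference in colour. The 217 coloured points above the line include Il10 and Gbx2, and the 177 below it include Eomes, Runx3 and Wnt3.

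Il10 had the largest positive difference, 5.06 log2 (SE 0.81, adjusted p = 0.000201). Its wild-type libraries held at most 0.393 CPM in the formative and 0.226 CPM in the naive state, so it was detected above 1 CPM only in the formative catalytic-dead libraries of these 4 groups. Ly6a and Apol6 were high in the naive wild-type libraries alone. Ly6a, a surface antigen of many stem and immune cells, had 41.8 and 45.7 CPM there, against 0.576, 0.785 and 0.399 CPM in formative wild-type libraries. In catalytic-dead cells it had 0.286, 0.473 and 0.578 CPM in formative and 2.80, 1.98 and 1.64 CPM in naive libraries (difference of transitions 3.98 log2, SE 0.66, adjusted p = 0.000272). Apol6 showed the same order with a difference of 4.13 log2. Spink1, Oas1a and 6330410L21Rik differed by 3.44, 3.65 and 3.72 log2, of which Oas1a lost its call with a prior count of 0.5 (3.73, adjusted p = 0.0809) and 6330410L21Rik with that prior count (4.43, 0.062) and without naive catalytic-dead library a (3.08, 0.0522).

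Wnt3, a ligand needed to form the streak, was lower in its transition by 3.56 log2 (SE 0.68, adjusted p = 0.00144). In wild-type cells it had 40.5, 20.5 and 35.3 CPM in formative and 0.632 and 1.02 CPM in naive libraries, so both lines rose and the formative wild-type libraries were the highest. Flt1, a VEGF receptor, and Slc40a1, the iron exporter ferroportin, also rose in both lines and differed by -3.58 and -3.36 log2. Slc40a1 had 9.16, 10.0 and 11.4 CPM in formative and 0.783, 3.50 and 2.46 CPM in naive catalytic-dead libraries, against 32.0, 25.3 and 29.9 CPM in formative and 0.421 and 0.339 CPM in naive wild-type libraries. Irx3, Psors1c2 and Slc5a5 differed by -3.62, -3.72 and -3.26 log2, the last a call lost when that group was cut to its library b (-2.99, adjusted p = 0.0543).

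**Figure D5:**
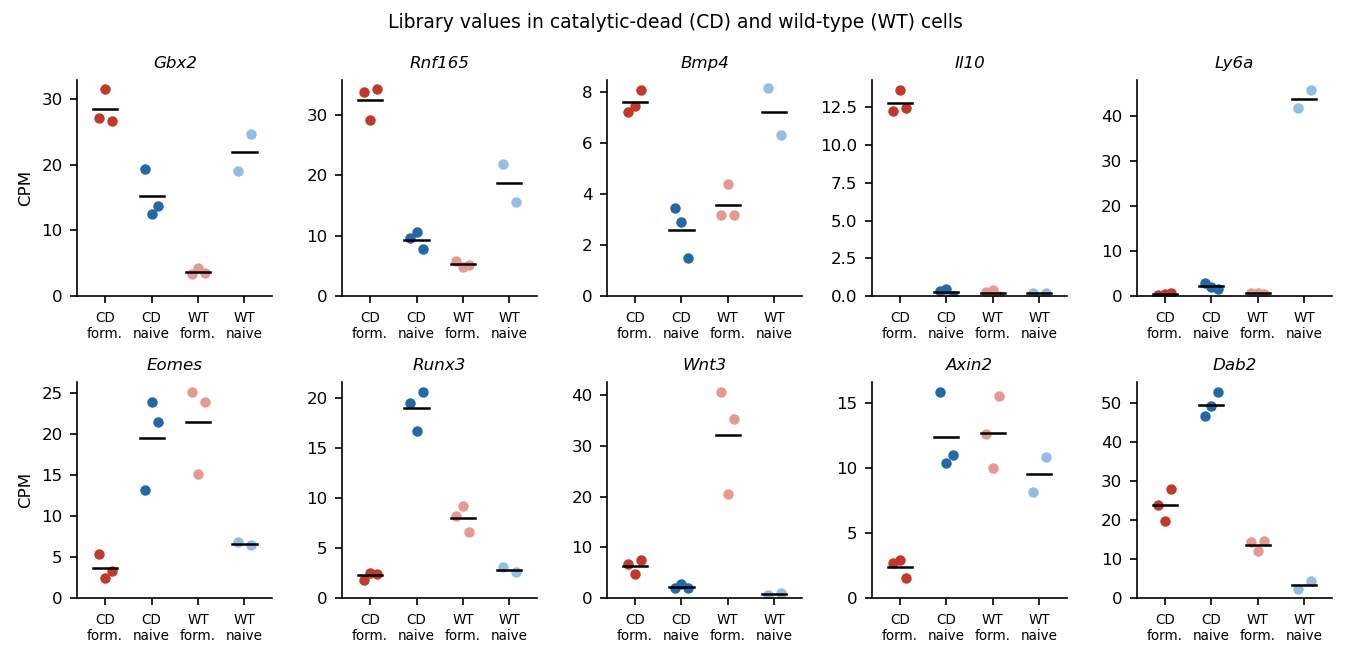
CPM per library (points) and mean (bars) of 10 genes in formative and naive catalytic-dead cells (3 libraries each) and formative (3) and naive (2) wild-type cells, left to right, on linear axes from 0. Gbx2 is high in 3 of the 4 groups and near 4 CPM in formative wild-type cells, while Eomes is high in naive catalytic-dead and formative wild-type cells.

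The lists differed in how many members had a different transition, beside 1.87% higher and 1.53% lower over all tested genes. Of 29 Wnt genes 1 was higher (Lef1) and 5 were lower (Wnt3, Axin2, Sfrp5, Fzd7 and Fzd10). The calls of Sfrp5 (-2.17 log2) and Fzd7 (-1.75 log2) were lost in 4 and 12 alternatives, among them for each the one that leaves out naive wild-type library a (adjusted p = 0.133 and 0.162). Of 6 LIF and STAT3 genes 3 were lower, Junb, Gadd45g (-1.91 log2) and Sbno2 (-1.12 log2), the last a call lost in 5 alternatives (adjusted p up to 0.15). Of 10 interferon-type genes 3 were higher, Ly6a, Oas1a and Ddx58 (1.6 log2). Axin2 did not pass in wild-type cells, with 12.6, 10.0 and 15.5 CPM in formative and 8.15 and 10.9 CPM in naive libraries, and differed by -2.69 log2 (SE 0.49, adjusted p = 0.00085). Fzd10 differed by -1.49 log2 and Junb by -1.81 log2, and both calls were lost when naive wild-type library a was left out (-1.13, adjusted p = 0.0979, and -1.52, 0.0542). Of 13 streak genes 3 were lower in their transition, namely Eomes, Wnt3 and Evx1 (-3.42 log2). Of 5 naive pluripotency genes 2 were higher, Gbx2 and Tcl1 (1.90 log2). Tcl1 fell in both lines, to 10.3, 11.7 and 14.5 CPM in formative catalytic-dead libraries, against 34.3, 42.5 and 46.1 CPM in naive ones, and to 15.0, 17.5 and 10.9 CPM in formative wild-type libraries, against 192 and 166 CPM in naive ones.

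Dab2, Dlk1, Hoxc8 and Prdm1 also differed between the lines. Dab2 rose in wild-type cells, with 14.3, 11.97 and 14.8 CPM in formative and 2.32 and 4.53 CPM in naive libraries, and differed by -3.06 log2 (SE 0.38, adjusted p = 3.49e-06). Dlk1, an imprinted Notch-like ligand, had 25.9, 24.1 and 25.4 CPM in formative and 23.0, 24.3 and 25.6 CPM in naive catalytic-dead libraries, against 34.9, 34.4 and 24.6 CPM in formative and 6.04 and 2.94 CPM in naive wild-type libraries (-2.76 log2, SE 0.37, adjusted p = 1.19e-05). The 4 groups of Dlk1 differ mainly by the low naive wild-type libraries. Prdm1, a transcriptional repressor needed for germ cell specification, had 13.7, 15.0 and 17.8 CPM in formative and 20.6, 12.9 and 14.1 CPM in naive catalytic-dead libraries. Its wild-type libraries held 5.98, 7.16 and 7.44 CPM in the formative and 36.5 and 34.5 CPM in the naive state (difference of transitions 2.33 log2, SE 0.32, adjusted p = 2.36e-05). Hoxc8 and Ncam1 differed by -4.27 and 1.61 log2. Lef1 differed by 1.99 log2 at an adjusted p of 0.0443, a call lost with a prior count of 0.5 and without each of the 11 libraries other than formative wild-type library c (1.70 to 2.27 log2, adjusted p between 0.0502 and 0.181).

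The difference between lines was more often larger in the naive than in the formative state. Of the 217 genes with a higher catalytic-dead transition, 161 had the larger line difference in naive cells, as had 120 of the 177 with a lower one. Among the 217, catalytic-dead minus wild type had a median of 0.55 log2 in formative and -1.28 log2 in naive cells. Among the 177 the medians were -0.56 log2 in formative and 1.28 log2 in naive cells. The naive wild-type group has 2 libraries and the formative one 3. The genes were chosen by the difference of transitions, so these medians describe them and carry no test.

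The same comparison was made with MLL3KO_MLL4KO cells, in which both genes are knocked out and not only their catalysis lost. Line and genotype cannot be told apart there. The difference of the transitions passed for 293 genes above the knockout transition (2.62% of 11203 tested) and 766 below (6.84%). Size factors moved the whole difference by 0.131 log2 and gave 401 and 580, so the balance depends on scaling, while the named differences below are far larger than this shift. With the formative knockout column as deposited, the shared library included, the counts were 144 and 422. In knockout cells themselves 21.8% of tested genes rose and 5.63% fell. There were 19 genes that rose in catalytic-dead and fell in knockout cells and 85 that did the reverse.

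Genes with a lower transition than in knockout cells were led by Anxa1, a phospholipid-binding anti-inflammatory protein. It had 3.72, 7.76 and 2.75 CPM in formative and 22.6, 14.9 and 14.9 CPM in naive catalytic-dead libraries, against 36.5, 66.8 and 37.2 CPM in formative and 6.74, 4.70 and 4.08 CPM in naive knockout libraries, a difference of -5.04 log2 (SE 0.45, adjusted p = 3.38e-09). Anxa1 thus fell in the first line and rose in the second. Eomes differed by -4.26 log2, with 8.62, 4.00 and 8.32 CPM in formative and 1.95, 1.42 and 1.49 CPM in naive knockout libraries. The Wnt receptor Fzd7 was level in catalytic-dead cells, with 6.94, 6.72 and 7.95 CPM in formative and 7.04, 7.15 and 7.88 CPM in naive libraries. In knockout cells Fzd7 had 13.3, 16.1 and 14.6 CPM in formative and 0.778, 0.355 and 0.743 CPM in naive libraries, so that the transitions differed by -4.24 log2 (SE 0.57, adjusted p = 5.77e-06). Khdc3, Nptx2, Plce1 and Gpr4 differed by -4.37, -4.24, -4.24 and -4.15 log2. Fcgr2b differed by -4.92 log2, a call lost with a prior count of 0.5 (-5.08, adjusted p = 0.0856).

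Of 15 FGF and ERK genes tested against the knockout transition 6 were lower and 1 higher, beside 6.84% and 2.62% over all tested genes. Spry4 rose in both lines, but to 7.37, 8.70 and 7.95 CPM in formative catalytic-dead libraries, against 15.6, 19.1 and 28.9 CPM in formative knockout libraries, and from naive levels that were higher in catalytic-dead cells (difference -3.73 log2, SE 0.69, adjusted p = 0.000432). Etv1 was level in catalytic-dead cells and rose in knockout cells (-2.42 log2). Egr1 differed by -2.64 log2 and Fgf8 by 3.09 log2, and both calls were lost with the knockout column as deposited (-2.01, adjusted p = 0.336, and 2.13, 0.241). Fgf8 had at most 1.04 CPM in formative and 0.248 CPM in naive knockout libraries.

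In the other direction Krt17, a keratin, had 0.573, 1.14 and 1.16 CPM in formative and 0.335, 2.13 and 0.656 CPM in naive catalytic-dead libraries, against 0.702, 0.428 and 1.66 CPM in formative and 38.3, 33.1 and 41.2 CPM in naive knockout libraries. Its difference of 5.33 log2 (SE 0.73, adjusted p = 7.25e-06) goes with naive knockout libraries that stand above all others, as they also did for Obox6, Slc25a48 and 1700042O10Rik (4.27, 3.78 and 3.77 log2). Il10 differed from the knockout transition as well, by 5.16 log2 (SE 0.75, adjusted p = 1.93e-05), and no knockout library exceeded 0.416 CPM. Tmem63a, an ion channel, had 30.6, 29.1 and 36.6 CPM in formative and 5.14, 3.96 and 1.97 CPM in naive catalytic-dead libraries, and differed by 3.61 log2 (SE 0.39, adjusted p = 2.04e-07). The differences of 2610528J11Rik (4.72 log2) and Gbp2b (4.15 log2) were lost with the knockout column as deposited (adjusted p = 0.0552 and 0.136). Of the 293 genes above and the 766 below, 149 and 476 had the larger line difference in naive cells.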

How the data were processed

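Expression was measured by 3' RNA sequencing (QuantSeq FWD, 200 ng input, single-end reads of 50 bases, per the labels' protocols) in 24 samples. The submitters' processing notes name the genome build mm10, cutadapt 2.5, STAR, featureCounts of Subread 1.6.4 and DESeq2 1.34.0, with no order. The deposited table holds log2 CPM for 16617 genes as the authors' mean of each of the 8 groups, and no value per sample. Its values carry 9 decimals and fit means of log2 CPM with a prior count of 2. Counts per library were recovered by searching for the whole numbers that give each mean. The search covered counts within 1 to 3 log2 of the mean, plus a few counts, so libraries farther apart could not be recovered. A lone solution was accepted where at most 0.05 were expected by chance, or 0.3 in the narrowest window. A recovered count can therefore be wrong. The search found 23 libraries and 234513119 counts in all, and gave counts for 74.0% of genes in formative and 79.3% in naive catalytic-dead cells. Of genes up to 100 counts at least 99.67% were recovered in every group. One library was in both formative columns named in the report. Where its own count was unknown, the formative catalytic-dead mean stood for it in correcting the knockout mean. The columns carry no replicate numbers, so the letters a to d are names only.

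limma 3.58.1 (R 4.3.3) was fitted to the log2 CPM of all 8 groups with weights per gene and group, after a filter of 10 counts at the median library in at least 3 libraries, and p-values were Benjamini-Hochberg adjusted over all genes tested in a contrast. The p-values rest on the spread between libraries within a group, pooled over those of the 8 groups in which a gene was recovered. They do not measure a spread between clones. The fit was tested on simulated data, where the share of false calls came out above the nominal level under both models of spread tried, so calls close to the threshold are less certain than their adjusted p. The second model was added after the outcome of the first was seen. Ratios of counts have exact 95% intervals that cover counting error only, and a count of 0 allows up to 3 counts. Genes were named by rule: the 12 largest rises and falls with libraries that do not overlap and at least 10 CPM, the 8 highest and lowest untested genes, the leading members of each list, and the 8 most positive and negative differences of transitions. The members and lists were chosen with earlier results of these data known. Alternatives changed the scaling, weights, groups fitted, filter, prior count, threshold and each library. Annotation was GENCODE mouse release 21 (GRCm38), and promoters came from RefSeq (GRCm38.p6). A few genes that these rules select are not reported here.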

Additional observations from a re-analysis of the deposited data

Results flagged for a closer look

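The results here were set apart because the same transition differed between lines by a test of the difference itself (limma, Benjamini-Hochberg adjusted). Groups of 2 or 3 libraries were not examined for single outlying samples. Against wild type, 217 genes were higher and 177 lower in the catalytic-dead transition, and against the knockout 293 were higher and 766 lower. Differences are log2, catalytic-dead minus the other line.

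Among transcription factors set against wild type, the difference was -4.37 for Runx3, -4.27 for Hoxc8, -3.98 for Eomes, -3.62 for Irx3, -3.42 for Evx1 and -1.81 for Junb. It was 1.99 for Lef1, 2.33 for Prdm1 and 3.41 for Gbx2. For ligands, receptors and pathway genes it was -3.58 for Flt1, -3.56 for Wnt3, -2.76 for Dlk1, -2.69 for Axin2, -2.17 for Sfrp5, -1.75 for Fzd7, -1.49 for Fzd10, 1.90 for Tcl1, 2.52 for Bmp4 and 5.06 for Il10. The remaining genes with a lower transition than wild type were Psors1c2 at -3.72, Slc40a1 at -3.36, Slc5a5 at -3.26, Dab2 at -3.06, Gadd45g at -1.91 and Sbno2 at -1.12. Those with a higher one were Ddx58 at 1.6, Ncam1 at 1.61, Spink1 at 3.44, Rnf165 at 3.55, Oas1a at 3.65, 6330410L21Rik at 3.72, Ly6a at 3.98 and Apol6 at 4.13.

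Against the knockout the lower transitions were those of Anxa1 at -5.04, Fcgr2b at -4.92, Khdc3 at -4.37, Eomes at -4.26, Fzd7, Nptx2 and Plce1 at -4.24 each, Gpr4 at -4.15, Spry4 at -3.73, Egr1 at -2.64 and Etv1 at -2.42. The higher ones were those of Fgf8 at 3.09, Tmem63a at 3.61, 1700042O10Rik at 3.77, Slc25a48 at 3.78, Gbp2b at 4.15, Obox6 at 4.27, 2610528J11Rik at 4.72, Il10 at 5.16 and Krt17 at 5.33. Of the genes listed here, Eomes, Fzd7 and Il10 stand in both comparisons, which share the catalytic-dead libraries. The call of Fzd7 against wild type was lost in many alternatives, as given above. Genes outside the second list also passed both tests, not always in the same direction. Slc40a1, lower against wild type, was at 1.54 against the knockout (adjusted p = 0.0487), a call also lost in many alternatives.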

How the results depend on the processing

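No paired analysis was possible because the deposited columns are group means and the recovered libraries carry no replicate numbers. The counts of genes that rose or fell in the catalytic-dead transition stayed within 1.5 times in every alternative but 1, a required log2 difference of at least 1, which by its construction left 865 falls. Leaving out 1 library gave 1774 to 2065 rises and 974 to 1220 falls. Against wild type the same step gave 132 to 218 genes higher and 65 to 192 lower, with both lowest counts from leaving out naive wild-type library a (132 and 65) and 110 lower without library b. Each leaves that group with 1 library, assumed to vary like the others. Against the knockout it gave 190 to 289 higher and 495 to 762 lower (190 and 510 without naive catalytic-dead library a, 495 lower without formative library a). A prior count of 0.5 gave 188 higher, and the knockout column as deposited 144 higher and 422 lower, and the cause was not tested. Size factors in place of totals moved the share of higher calls from 55.08% to 67.56% against wild type (304 higher, 146 lower) and from 27.67% to 40.88% against the knockout (401 higher, 580 lower). Of 285 results for named genes past the threshold, 189 stayed past it in every alternative run, 96 lost it in at least 1 and 0 changed sign. Depth limits the other end of the range: above 300 counts few genes could be recovered, so 4621 abundant genes have no test.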

Other observations

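Several of the genes with the largest differences lie beside each other on the chromosome, a pattern noticed after the values were seen and given here as positions and values only (GRCm38). On chromosome 1, Fcgr2b (170958617 to 170976547) is followed by the lincRNA Gm10522 (170981944 to 170986466), and both fell in the catalytic-dead transition, by 5.64 and 4.01 log2. On chromosome 2, Accsl starts at 93855361, Gm13889 at 93955810 and Mir670hg at 94160636. Accsl and Gm13889, both untested, were lower by 4.83 and 5.87 log2 in formative cells, while Mir670hg rose by 6.07 log2. Whether neighbours share a difference more often than other pairs was not tested.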
